A study of Mus musculus with 10 samples.

Results

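The genes described here belong to the NF-kB pathway: subunits of the factor (Nfkb1, Nfkb2, Relb), proteins of the inhibitor family (Nfkbia, Nfkbiz), feedback regulators (Tnfaip3, Birc3), the cytokine Tnf and the adhesion molecules Icam1 and Vcam1. They were taken by name, with the brightest probe set that carries 1 gene symbol standing for each gene. Of the 10 genes listed, 9 were measured among 18826 genes tested, each by 1 probe set, and Nfkb1 was not analysed here. Each of the 9 lay above the 25th percentile of all probe sets on all 10 arrays, so none passed the filter on dim probe sets only through a group in which it was high.

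Salivary gland cells of female NOD/ShiLtJ mice were profiled on 10 Affymetrix arrays. NOD/ShiLtJ is an inbred strain whose mice develop autoimmune diabetes and lymphocyte infiltrates of the salivary glands. The groups were mice with type 1 diabetes at 21 weeks of age (n = 4), mice without diabetes at 21 weeks (n = 3) and mice without diabetes at 6 weeks (n = 3), and no treatment is named for any of them. All groups share the strain and sex, and none is of a strain free of autoimmunity. Before RNA extraction the gland tissue was dissociated with enzymes (dispase II, collagenase IV) and filtered. The labels do not say which salivary gland was taken, or whether an array holds 1 mouse or several. P-values therefore measure the spread between these arrays. In bulk RNA of this kind, fewer cells of a type and less RNA per cell cannot be told apart.

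NF-kB factors are dimers held in the cytoplasm by inhibitor proteins. In the canonical route, receptors for TNF, IL-1 and microbial products activate a kinase complex that marks the inhibitor IkBα, encoded by Nfkbia, for destruction, and the freed dimer enters the nucleus. In the alternative route, receptors of lymphoid tissue formation such as the lymphotoxin beta receptor drive the processing of the Nfkb2 product p100 to p52, which pairs with RelB. Several target genes feed back on the pathway: newly made IkBα takes dimers out of the nucleus, and A20, encoded by Tnfaip3, takes apart ubiquitin chains that carry the signal. In inflamed glands the pathway is known for inducing the adhesion molecules by which lymphocytes leave blood vessels.

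Promoter sequences, shown because several of these feedback genes carry the pathway's own binding motif beside their start sites, came from a RefSeq table of the mouse build GRCm38.p6 that held 6 of the 10 genes (Nfkb2, Nfkbia, Tnfaip3, Birc3, Tnf, Icam1). The 250 bases before each annotated start site were searched on both strands for the 10-base κB consensus, and overlapping matches were counted as 1 site. The consensus was found in 5 of the 9 start site windows of these genes, against 7.25% of all 32851 windows in the table. Nfkb2 alone held 3 of the 5 windows, and 2 of its windows share bases, so the windows are not independent. By gene it was found in 3 of the 6, for which the share per window is no match, as a gene can have several windows. The windows below are written 5′ to 3′ on the strand of the gene, with the matches in capitals. They lie at chr12:55492648-55492897 (minus strand) for Nfkbia, chr10:19015411-19015660 (minus strand) for the upstream start site of Tnfaip3, and chr19:46304487-46304736 (plus strand) for the first start site of Nfkb2.
Nfkbia: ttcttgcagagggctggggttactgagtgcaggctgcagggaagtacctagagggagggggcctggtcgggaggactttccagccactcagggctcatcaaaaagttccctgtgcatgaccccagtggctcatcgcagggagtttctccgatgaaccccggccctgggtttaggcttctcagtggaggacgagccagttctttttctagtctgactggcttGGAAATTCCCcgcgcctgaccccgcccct
Tnfaip3: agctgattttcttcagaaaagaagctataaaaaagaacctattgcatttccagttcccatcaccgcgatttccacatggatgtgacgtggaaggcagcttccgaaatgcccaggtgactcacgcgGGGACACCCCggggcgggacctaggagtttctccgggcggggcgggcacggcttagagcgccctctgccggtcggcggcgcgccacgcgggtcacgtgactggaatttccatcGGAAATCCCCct
Nfkb2: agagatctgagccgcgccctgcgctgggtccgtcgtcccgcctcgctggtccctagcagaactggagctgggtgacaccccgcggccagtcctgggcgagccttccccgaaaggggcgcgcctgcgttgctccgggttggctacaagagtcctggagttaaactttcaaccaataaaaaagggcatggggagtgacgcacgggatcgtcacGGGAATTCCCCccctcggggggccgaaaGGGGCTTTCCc
The Nfkbia match ended 19 bases before the start site. Tnfaip3 had matches ending 115 and 2 bases before it, and Nfkb2 had matches ending 28 and 1 bases before it. Both other Nfkb2 windows held 1 match each. The other Tnfaip3 window and those of Birc3, Tnf and Icam1 held none, which says only that these letters are not in those 250 bases. A match is a description of the sequence, not a measured site of binding.

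The comparison named in the series text set diabetic against nondiabetic mice at 21 weeks. In the diabetic glands the inhibitor genes Nfkbia and Nfkbiz and the adhesion gene Vcam1 lay above every nondiabetic array of the same age, at 1.62, 1.55 and 1.58 times the nondiabetic level (3 of 9 genes higher without overlap, against 9.11% of all genes). By limma, with p adjusted over all genes tested, 0 of 9 reached the threshold of 0.05 (1.44% of all genes did), and 5 of 9 had an unadjusted p under 0.05, all higher in diabetic glands (10.8% of all genes were). The log2 difference was above 0 for 9 of 9, against 56% of all genes, and its median was 0.41 against 0.03 over all genes. The third nondiabetic 21-week array was the least like the rest: its correlations over genes were 0.901 to 0.93, while the other 9 correlated among themselves at 0.94 to 0.975. Without it and diabetic array 4, which was high in lymphocyte genes, 3 of 9 genes were higher at an unadjusted p under 0.05 (7.96% of all genes were), the median log2 difference was 0.18, and Nfkbia, Nfkbiz and Vcam1 still did not overlap between the groups (16.8% of all genes were then higher without overlap).

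**Figure D1:**
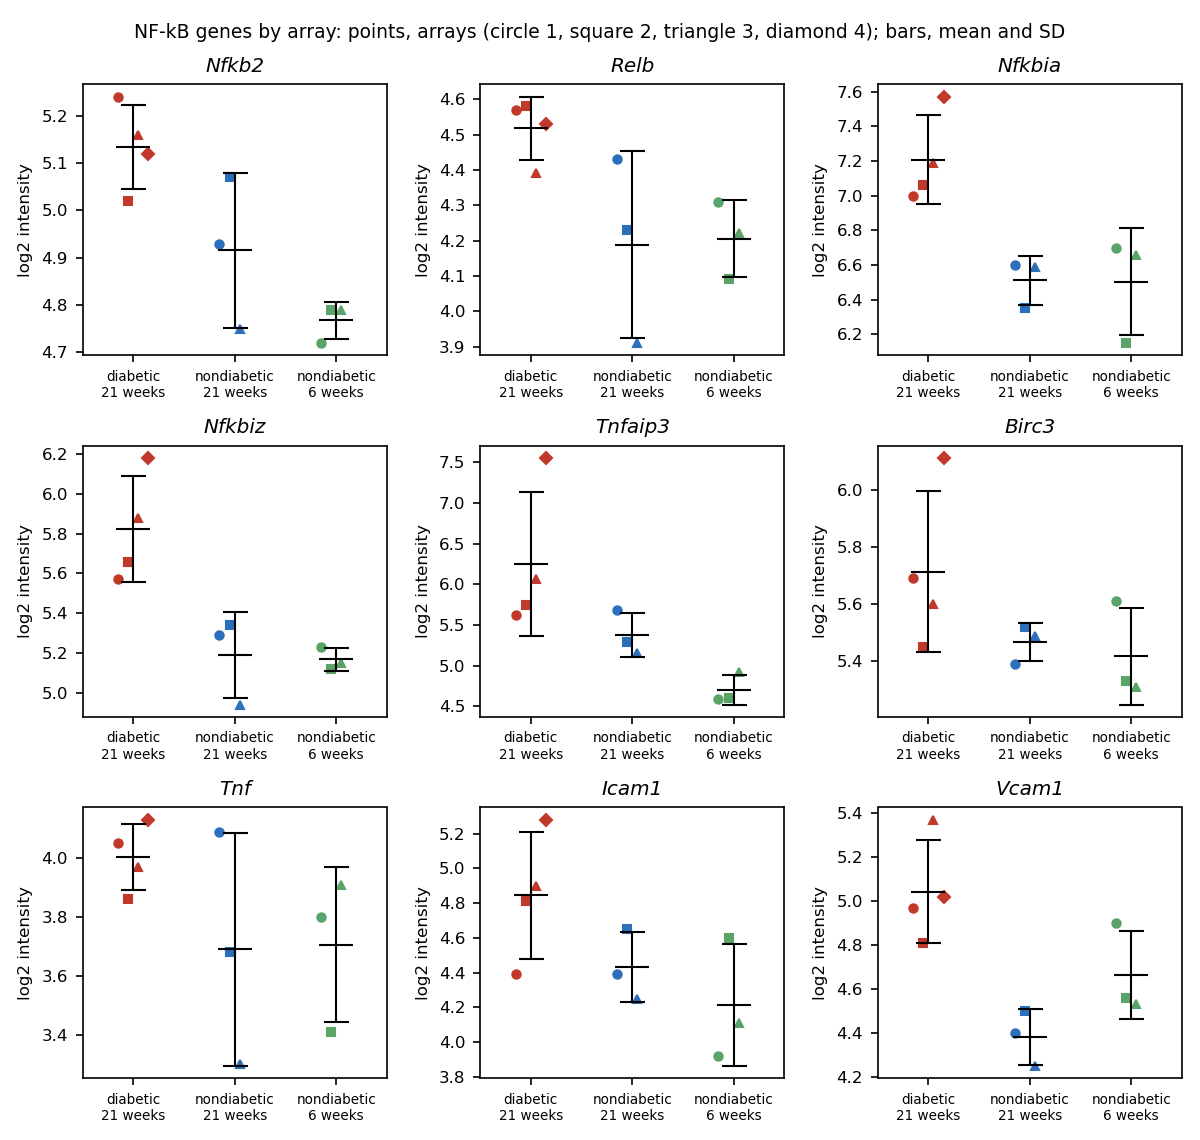
Log2 intensity (vertical axes) of the 9 measured NF-kB genes on each array, by group (horizontal axes); points are arrays and bars are the group mean and SD. Diabetic arrays lie above all nondiabetic 21-week arrays for Nfkbia, Nfkbiz and Vcam1, and diabetic array 4 is the highest for Nfkbia, Nfkbiz, Tnfaip3, Birc3, Tnf and Icam1.

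Among the subunits, Nfkb2 encodes p100, the precursor of p52. Nfkb2 had log2 intensities of 5.24, 5.02, 5.16 and 5.12 on the diabetic arrays, 4.93, 5.07 and 4.75 on the nondiabetic 21-week arrays and 4.72, 4.79 and 4.79 on the 6-week arrays. All diabetic arrays were above all 6-week arrays, while 1 nondiabetic 21-week array reached into the diabetic range. The log2 difference of Nfkb2 between diabetic and nondiabetic 21-week glands was 0.22 ± 0.12 (SE; limma adjusted p = 0.399), and 0.13 without nondiabetic 21-week array 3. Relb, which encodes the partner of p52, had 4.57, 4.58, 4.39 and 4.53 on the diabetic arrays, 4.43, 4.23 and 3.91 on the nondiabetic 21-week arrays and 4.31, 4.09 and 4.22 on the 6-week arrays. The lowest diabetic array of Relb was below the highest nondiabetic 21-week array, and the difference was 0.33 ± 0.14 on the log2 scale (adjusted p = 0.273), and 0.19 without nondiabetic 21-week array 3.

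Nfkbia, the gene of IkBα, which holds NF-kB dimers out of the nucleus, had log2 intensities of 7.0, 7.06, 7.19 and 7.57 on the diabetic arrays, 6.60, 6.35 and 6.59 on the nondiabetic 21-week arrays and 6.70, 6.15 and 6.66 on the 6-week arrays. The diabetic arrays were above all 6 nondiabetic arrays of both ages. Against nondiabetic glands of the same age the log2 difference of Nfkbia was 0.69 (95% interval 0.32 to 1.07, adjusted p = 0.071). Nfkbiz encodes IkBζ, a nuclear member of the inhibitor family that acts with NF-kB on secondary response genes. It had 5.57, 5.66, 5.88 and 6.18 on the diabetic arrays, 5.29, 5.34 and 4.94 on the nondiabetic 21-week arrays and 5.23, 5.12 and 5.15 on the 6-week arrays. Here too the diabetic arrays stood above all others, by 0.63 on the log2 scale at 21 weeks (95% interval 0.29 to 0.97, adjusted p = 0.071). Nfkbia passed the threshold with a trended and robust variance (adjusted p = 0.0421, range over all alternatives 0.0421 to 0.178) and Nfkbiz with the arrays centred on their medians (adjusted p = 0.0465, range 0.0465 to 0.236).

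Tnfaip3, the gene of the ubiquitin-editing enzyme A20 and the most variable of the 9 genes over the 10 arrays, had log2 intensities of 5.63, 5.75, 6.07 and 7.55 on the diabetic arrays, 5.69, 5.29 and 5.16 on the nondiabetic 21-week arrays and 4.59, 4.61 and 4.92 on the 6-week arrays. Diabetic array 4 was far above the others, and the lowest diabetic array lay below the highest nondiabetic 21-week array. The log2 difference of Tnfaip3 at 21 weeks was 0.87 ± 0.36 (adjusted p = 0.267), and without diabetic array 4 it was 0.44 (adjusted p = 0.25; range over all alternatives 0.187 to 0.48). Birc3, the gene of the ubiquitin ligase cIAP2, had 5.69, 5.45, 5.60 and 6.11 on the diabetic arrays, 5.39, 5.52 and 5.49 on the nondiabetic 21-week arrays and 5.61, 5.33 and 5.31 on the 6-week arrays. All 3 groups of Birc3 overlapped, and the log2 difference at 21 weeks was 0.25 ± 0.16 (adjusted p = 0.468), and 0.11 without diabetic array 4.

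Tnf, the cytokine gene that is both an activator and a target of the pathway, was dim and lay above the array's median probe set on 7 of 10 arrays. Its log2 intensities were 4.05, 3.86, 3.97 and 4.13 on the diabetic arrays, 4.09, 3.68 and 3.30 on the nondiabetic 21-week arrays and 3.80, 3.41 and 3.91 on the 6-week arrays. The groups overlapped, and the log2 difference of Tnf at 21 weeks was 0.31 (95% interval -0.08 to 0.71, adjusted p = 0.425). It was 0.12 without nondiabetic 21-week array 3 and 0.51 without nondiabetic 21-week array 1.

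Icam1 encodes the endothelial and epithelial ligand of the leukocyte integrin LFA-1. Icam1 had log2 intensities of 4.39, 4.81, 4.90 and 5.28 on the diabetic arrays, 4.39, 4.65 and 4.25 on the nondiabetic 21-week arrays and 3.92, 4.60 and 4.11 on the 6-week arrays. The lowest diabetic array of Icam1, at 4.39, was below the highest nondiabetic 21-week array, at 4.65, and the highest 6-week array, at 4.60. The log2 difference of Icam1 at 21 weeks was 0.41 ± 0.21 (adjusted p = 0.365), and 0.27 without diabetic array 4. Vcam1, which encodes the ligand of the integrin VLA-4, had 4.97, 4.81, 5.37 and 5.02 on the diabetic arrays, 4.40, 4.50 and 4.25 on the nondiabetic 21-week arrays and 4.90, 4.56 and 4.53 on the 6-week arrays. All diabetic arrays of Vcam1 were above all nondiabetic 21-week arrays, and 1 of the 6-week arrays lay within the diabetic range. Vcam1 had the smallest p of the 9 genes in this comparison, with a log2 difference of 0.66 (95% interval 0.33 to 0.99, adjusted p = 0.0549). It passed with a filter at the array median (adjusted p = 0.0402), with a trended and robust variance (0.0456) and with median centring (0.0428), in a range of 0.0402 to 0.191 over all alternatives.

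**Figure D2:**
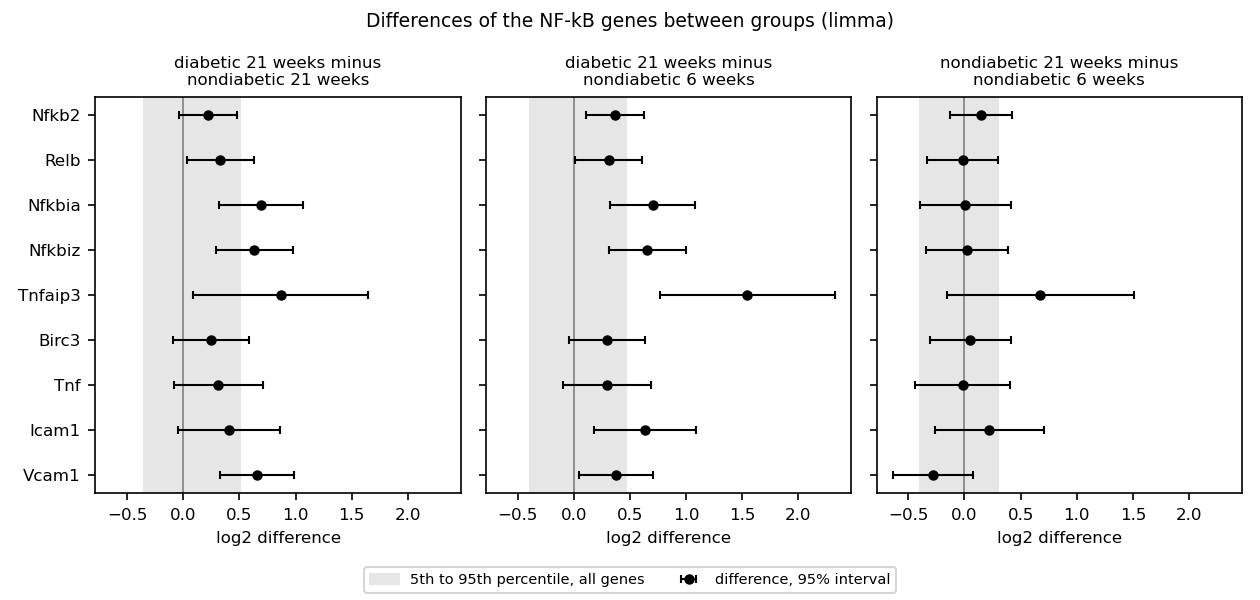
Log2 differences (horizontal axes) of the 9 genes in each comparison, with 95% intervals from limma; the grey band spans the 5th to the 95th percentile of all 18826 genes. Nfkbia, Nfkbiz, Tnfaip3 and Vcam1 lie above the band in the comparison at 21 weeks. Between the ages Tnfaip3 lies above the band, and Vcam1, Relb and Tnf lie below 0 but inside it.

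The comparison of nondiabetic glands at 21 and 6 weeks set the ages against each other without diabetes. Lymphocyte markers differed between these groups too, so age and lymphocyte content cannot be told apart here. T cell markers averaged 3.81 to 4.69 at 21 weeks and 3.59 to 3.73 at 6 weeks. B cell markers averaged 3.72 to 4.25 and 3.44 to 3.52. By limma 0 of the 9 NF-kB genes passed (0.0266% of all genes did), and 0 had an unadjusted p under 0.05 (7.47% of all genes did). Of their log2 differences 6 of 9 were above 0 (38.2% of all genes), with a median of 0.02 against -0.06 over all genes. The groups did not overlap for Tnfaip3, which was higher at 21 weeks (4.11% of all genes were higher without overlap), and for Vcam1, which was lower at 21 weeks (9.73% of all genes were). The log2 difference of Tnfaip3 was 0.67 (95% interval -0.16 to 1.51, adjusted p = 0.723) and that of Vcam1 was -0.28 (95% interval -0.63 to 0.07, adjusted p = 0.726), or -0.16 without 6-week array 1. Nfkbia and Nfkbiz differed by 0.01 ± 0.19 and 0.02 ± 0.17 on the log2 scale, with 95% intervals of -0.39 to 0.41 and -0.34 to 0.39. Without nondiabetic 21-week array 3, Nfkb2 and Nfkbiz were also higher at 21 weeks without overlap, in all 3 of 9 genes against 12.3% of all genes.

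Diabetic glands at 21 weeks were also set against nondiabetic glands at 6 weeks, a comparison in which age and diabetes cannot be told apart and which shares its arrays with the comparisons above. Nfkb2, Relb, Nfkbia, Nfkbiz and Tnfaip3 were higher in all diabetic arrays than in all 6-week arrays (5 of 9, against 8.2% of all genes). By limma 0 of 9 passed an adjusted p of 0.05 (1.44% of all genes did), and 7 of 9 had an unadjusted p under 0.05 in the upward direction (7.7% of all genes did). The log2 differences were above 0 for 9 of 9 genes (46% of all genes), with a median of 0.38 against -0.02 over all genes. Tnfaip3 stood 1.54 log2 units above the 6-week level, 2.91-fold (95% interval 1.7 to 5.0-fold, adjusted p = 0.0572). Without diabetic array 4 the Tnfaip3 difference was 1.11 with an adjusted p of 0.0108, and it also passed without diabetic array 1 (1.75, adjusted p = 0.046), in a range of 0.0046 to 0.189 over all alternatives. Nfkbiz stood at 0.65 ± 0.16 (adjusted p = 0.067; adjusted p = 0.0407 without nondiabetic 21-week array 3, range 0.0231 to 0.206), Nfkbia at 0.70 ± 0.17 (0.0713), Nfkb2 at 0.37 ± 0.12 (0.163), Icam1 at 0.63 ± 0.21 (0.174) and Vcam1 at 0.38 ± 0.15 (0.265), all on the log2 scale with limma's adjusted p.

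By group means, the order of levels was diabetic 21 weeks, nondiabetic 21 weeks and nondiabetic 6 weeks for Nfkb2, Nfkbia, Nfkbiz, Tnfaip3, Birc3 and Icam1. For Relb, Tnf and Vcam1 it was diabetic 21 weeks, nondiabetic 6 weeks and nondiabetic 21 weeks. Both pairs of neighbours in these orders overlapped for Nfkb2, Birc3, Tnf and Icam1. The nondiabetic groups overlapped for Relb, Nfkbia and Nfkbiz, the diabetic and nondiabetic 21-week groups for Tnfaip3, and the diabetic and 6-week groups for Vcam1. The means of Vcam1 were 5.04 ± 0.23 (SD, n = 4) in diabetic glands, 4.38 ± 0.13 (n = 3) in nondiabetic glands at 21 weeks and 4.66 ± 0.20 (n = 3) at 6 weeks. Those of Tnfaip3 were 6.25 ± 0.89, 5.38 ± 0.27 and 4.71 ± 0.18 in the same groups.

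The rest of the pathway was counted from 9 lists of 101 genes, of which 93 were measured. Between diabetic and nondiabetic glands at 21 weeks, 2 of the 93 rose, 0 fell and 91 did not pass, a share near the 1.44% of all genes that passed. At an unadjusted p under 0.05, 23 of 93 were higher in diabetic glands (10.8% of all genes were) and 3 were lower. The shares of all genes lower at that p, or lower without overlap, are not given here for this comparison. Both risers were among 19 measured further target genes, of which 7 were higher and 2 lower at an unadjusted p under 0.05. The 2 lower ones, Sod2, a mitochondrial superoxide dismutase (-0.38 ± 0.14, adjusted p = 0.238), and Csf2, the cytokine GM-CSF (-0.36 ± 0.16, adjusted p = 0.304), did not overlap between the groups. Lcn2, which encodes an iron-binding protein that deprives bacteria of siderophores, had log2 intensities of 6.25, 6.21, 5.96 and 6.10 on the diabetic arrays, 4.95, 4.35 and 4.22 on the nondiabetic 21-week arrays and 4.81, 4.67 and 5.07 on the 6-week arrays. Lcn2 rose 3.08-fold at 21 weeks (log2 difference 1.62 ± 0.17, adjusted p = 0.000608), and all diabetic arrays were above all others. Ier3, an early response gene that modulates cell survival, had 7.08, 6.68, 7.22 and 7.67 on the diabetic arrays, 5.36, 5.99 and 4.57 on the nondiabetic 21-week arrays and 5.38, 5.16 and 5.40 on the 6-week arrays. Ier3 rose 3.63-fold (1.86 ± 0.29, adjusted p = 0.00773), again without overlap. Against 6-week glands the same 2 of 93 genes passed (1.44% of all genes did), Lcn2 up 2.43-fold (adjusted p = 0.00473) and Ier3 up 3.6-fold (adjusted p = 0.00895), and the Ier3 call was lost without 6-week array 2 (adjusted p = 0.0529) or array 3 (0.0502), in a range of 0.0012 to 0.0529 over all alternatives. Between nondiabetic glands at 21 and 6 weeks 0 of 93 passed with limma (0.0266% of all genes did), 5 at an unadjusted p under 0.05 (7.47% of all genes).

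**Figure D3:**
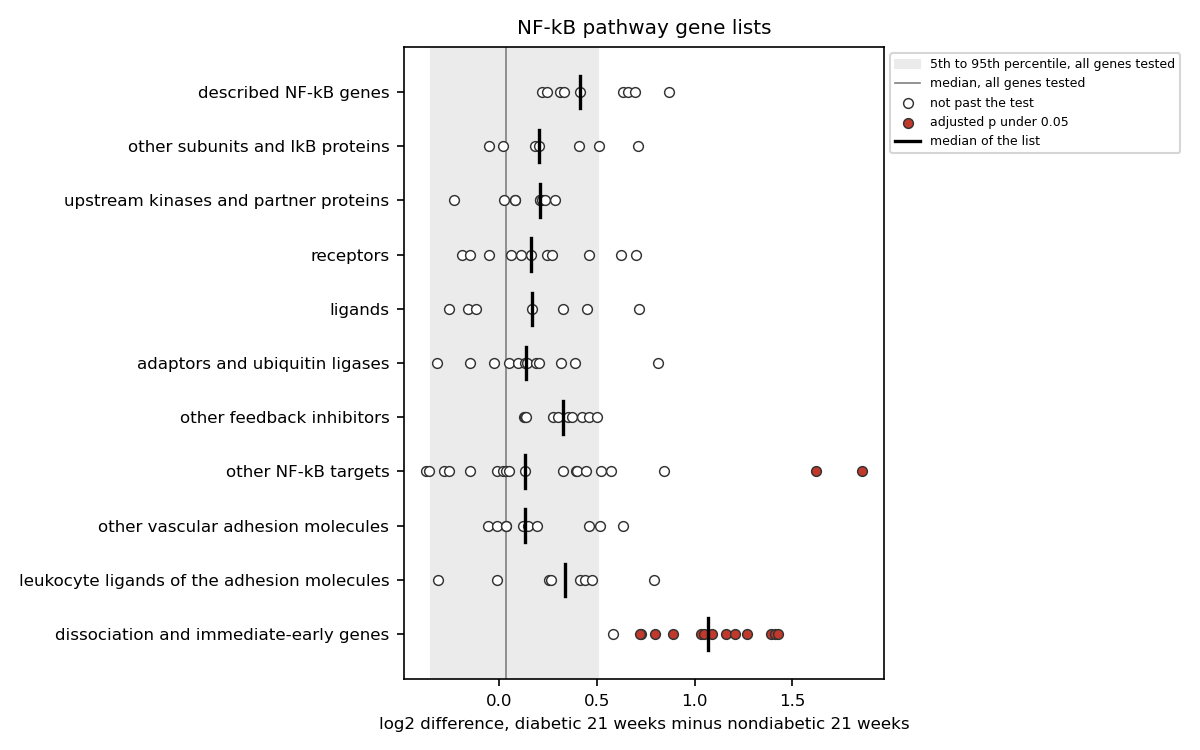
Log2 difference (horizontal axis) of each measured gene, diabetic minus nondiabetic at 21 weeks, by gene list (vertical axis); filled points passed an adjusted p of 0.05, black bars are list medians, and the grey band is the 5th to the 95th percentile of all genes. Among the pathway lists only Lcn2 and Ier3 passed, while 12 of 14 immediate-early genes did (1.44% of all genes passed).

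The remaining lists held no gene past the test at 21 weeks. Their counts at an unadjusted p under 0.05 stand against 10.8% of all genes higher at that level, and a median log2 difference of 0.03 over all genes. Among the other subunits and IkB proteins 0 of 7 passed and 2 had an unadjusted p under 0.05, with a median log2 difference of 0.20. These were Rela, the gene of the main activating subunit p65 (0.51 ± 0.12, adjusted p = 0.065), and Rel, the lymphoid subunit c-Rel (0.71 ± 0.27, adjusted p = 0.225). Rela had 6.59, 6.79, 6.77 and 6.92 on the diabetic arrays, 6.38, 6.09 and 6.29 on the nondiabetic 21-week arrays and 6.34, 6.45 and 6.44 on the 6-week arrays, so the diabetic arrays stood above all others. Among adaptors and ubiquitin ligases 0 of 12 passed, and 3 were higher and 1 lower at an unadjusted p under 0.05. The lower one was Fadd, the adaptor of death receptors (-0.32 ± 0.13, adjusted p = 0.248), without overlap of the groups. Myd88, the adaptor of Toll-like and IL-1 receptors, had a log2 difference of 0.81 ± 0.19 (adjusted p = 0.053), with 5.57, 5.65, 5.43 and 5.71 on the diabetic arrays against 5.12, 4.96 and 4.25 on the nondiabetic 21-week arrays. Its 6-week values of 5.37, 5.48 and 5.14 reached the diabetic range. Sharpin, a part of the linear ubiquitin ligase, differed by 0.39 ± 0.15 (adjusted p = 0.244).

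Of 11 receptor genes 0 passed and 2 had an unadjusted p under 0.05, Tlr2, a receptor of bacterial lipoproteins (0.70 ± 0.17, adjusted p = 0.065), and Il1r1, the receptor of IL-1 (0.62, adjusted p = 0.107). Ltbr, the lymphotoxin beta receptor of the alternative route, differed by 0.11 ± 0.12 (adjusted p = 0.696). Of 7 ligand genes 0 passed and 1, Il1b, had an unadjusted p under 0.05 (0.72 ± 0.33, adjusted p = 0.313). Its highest value, 5.30 on diabetic array 4, stood apart from 4.15, 4.20 and 4.10 on the other diabetic arrays, against 3.80, 4.05 and 3.33 on the nondiabetic 21-week arrays. The lymphotoxin genes Lta and Ltb differed by 0.33 ± 0.17 (adjusted p = 0.389) and 0.45 ± 0.31 (adjusted p = 0.513). Of 9 genes of the kinases upstream of the inhibitors and their partner proteins 0 passed, 0 at an unadjusted p under 0.05, with a median of 0.21, and the smallest p were those of Tbk1 (0.21 ± 0.11, adjusted p = 0.363) and Map3k7, the gene of TAK1 (0.22 ± 0.13, adjusted p = 0.439).

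All 10 other feedback inhibitors had log2 differences above 0 at 21 weeks (56% of all genes did), with a median of 0.33, and 0 passed with 4 higher at an unadjusted p under 0.05 (10.8% of all genes). Irak3, a kinase-like brake on Toll-like receptor signals, had the smallest p among them (0.50 ± 0.12, adjusted p = 0.0628), followed by Otulin, a linear deubiquitinase (0.46 ± 0.17, adjusted p = 0.215). Of 10 further vascular adhesion genes 0 passed and 2 had an unadjusted p under 0.05, with Cd34, a sialomucin of vessel walls, at 0.63 ± 0.26 (adjusted p = 0.26), Selp, the gene of P-selectin, at 0.51 ± 0.23 (adjusted p = 0.3) and Sele, the gene of E-selectin, at 0.19 ± 0.18 (adjusted p = 0.643). On the leukocyte side 0 of 8 passed and 2 had an unadjusted p under 0.05. Itgam, an integrin chain of myeloid cells that binds the Icam1 product, differed by 0.79 ± 0.20 (adjusted p = 0.0704), and Itgb1, the beta chain of VLA-4, by 0.25 ± 0.12 (adjusted p = 0.31). Itgam had 4.14, 4.31, 4.70 and 4.52 on the diabetic arrays against 3.77, 3.96 and 3.15 on the nondiabetic 21-week arrays. Its 6-week values of 4.12, 3.82 and 4.21 reached the diabetic range. Against 6-week glands Itgam differed by 0.37 ± 0.20 (adjusted p = 0.418). Itga4 and Itgal, the alpha chains of VLA-4 and LFA-1, differed by 0.41 ± 0.38 (adjusted p = 0.634) and 0.44 ± 0.23 (adjusted p = 0.381).

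Marker lists were set beside these genes. Immediate-early genes are switched on quickly by stimuli, enzymatic dissociation of tissue among them. Of 14 such genes 12 rose at 21 weeks (1.44% of all genes passed). Their mean log2 level lay between 7.70 and 8.16 in diabetic arrays, between 6.74 and 6.96 in nondiabetic 21-week arrays and between 6.67 and 7.01 in 6-week arrays, without overlap of diabetic and nondiabetic arrays, and Fos and Egr1 from that list were among the 3 genes most like Nfkbia in pattern. Without nondiabetic 21-week array 3 the count of immediate-early genes that rose was 9, and the share of all genes in that fit is not given here. Over 10 macrophage markers, of which Cd68 and Mrc1 rose, the mean was 5.50 to 6.15 in diabetic arrays. It was 4.80 to 5.06 in nondiabetic 21-week and 4.83 to 5.32 in 6-week arrays, again without overlap of diabetic and nondiabetic arrays. At an unadjusted p under 0.05, 7 of the 10 were higher (10.8% of all genes were), and 6 were higher without overlap (9.11%). Over 9 fibroblast markers 0 passed and 5 were higher at an unadjusted p under 0.05. Their mean was 5.71 to 5.98, 4.73 to 5.39 and 5.10 to 6.36 in the same groups. Over 10 endothelial markers 0 passed, and at an unadjusted p under 0.05 Vwf was higher in diabetic glands (1.06 ± 0.27, adjusted p = 0.0805) and Emcn lower (-0.48 ± 0.22, adjusted p = 0.315). The median log2 difference of the endothelial list was 0.10 at 21 weeks and -0.43 between diabetic and 6-week glands, and its mean level was 5.04 to 5.45 in diabetic, 4.76 to 5.27 in nondiabetic 21-week and 5.31 to 5.68 in 6-week arrays. The part of these genes and cells in the levels of Nfkbia, Nfkbiz and Vcam1 was not tested.

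Lymphocyte markers varied within the groups. The mean of 7 measured T cell markers was 5.46 on diabetic array 4 against 4.24 to 4.37 on the other diabetic arrays, and it was 3.81 to 4.69 on the nondiabetic 21-week arrays and 3.59 to 3.73 on the 6-week arrays. The mean of 9 measured B cell markers was 5.39 on diabetic array 4 against 3.77 to 4.10 on the other diabetic arrays, with 3.72 to 4.25 at 21 weeks and 3.44 to 3.52 at 6 weeks in nondiabetic glands. By limma 0 of these 7 and 0 of these 9 passed at 21 weeks, 1 and 0 at an unadjusted p under 0.05. Diabetic array 4 was also the highest for Tnfaip3, Birc3, Nfkbia, Nfkbiz, Icam1 and Rel, and the part of lymphocytes in these values was not tested. Of 10 serous acinar markers 6 rose at 21 weeks (1.44% of all genes passed). The list averaged 10.12 to 10.40 in diabetic arrays, 5.91 to 7.55 in nondiabetic 21-week arrays and 6.91 to 9.12 in 6-week arrays. Its members did not move together. Aqp5 differed by 0.10 ± 0.16 (adjusted p = 0.814) and Bhlha15 by -0.28 ± 0.18 (adjusted p = 0.47). Pip differed by -0.225 ± 0.105 (adjusted p = 0.321), lower without overlap. All 6 measured markers of the granular convoluted tubule, a duct segment of the rodent submandibular gland, fell, and they averaged 4.60 to 6.96, 9.76 to 10.68 and 8.55 to 9.05 in the same groups. Of 9 duct markers 2 fell, with list means of 6.13 to 6.34, 6.52 to 6.55 and 6.31 to 6.61. At an unadjusted p under 0.05, 5 were lower and 2 higher (10.8% of all genes were higher). The share of all genes lower at that p is not given here, so the count of lower duct markers has no background. The higher ones, Krt8 (0.39 ± 0.14, adjusted p = 0.203) and Krt18 (0.34 ± 0.11, adjusted p = 0.165), did not overlap between the groups. Both secretory lists separated the diabetic arrays from all others, and the part of gland makeup in the NF-kB values was not tested. On at least 5 of the 10 arrays, 0 genes of these marker lists lay below the 25th percentile.

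**Figure D4:**
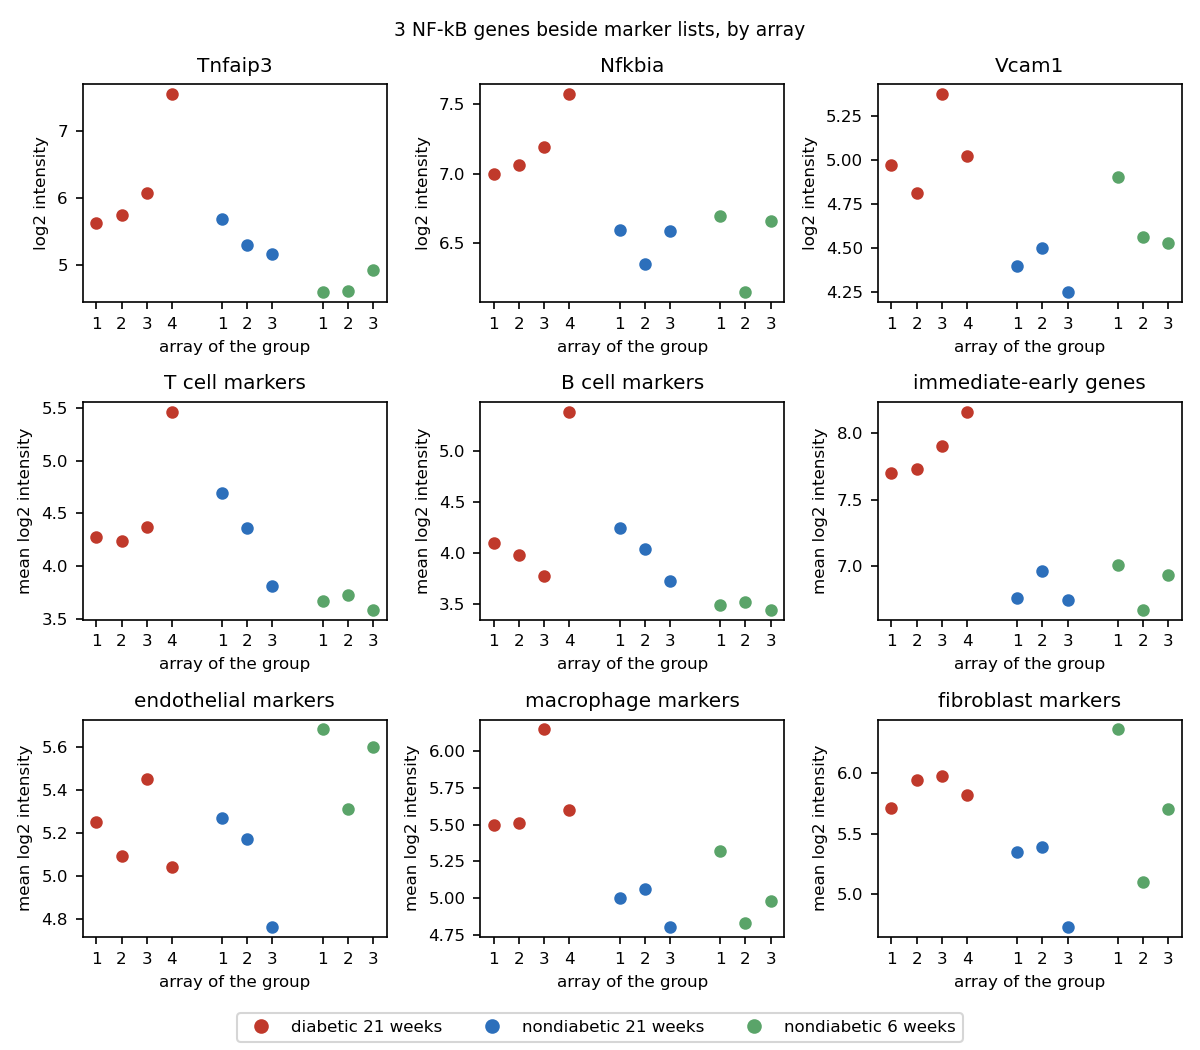
Log2 intensity of Tnfaip3, Nfkbia and Vcam1 (top row) and mean log2 intensity of marker lists (other rows) on each array (horizontal axes), coloured by group. Diabetic array 4 is the highest for Tnfaip3, T cell and B cell markers. The immediate-early genes and the macrophage markers both separate the diabetic arrays from both nondiabetic groups, as Nfkbia does.

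Pearson correlations between the 9 genes over the 10 arrays, which share the group differences, were 0.301 (Tnf and Icam1) to 0.885 (Nfkbiz and Tnfaip3). The median of the 36 pairs was 0.673. Correlations of other gene pairs are not given beside them, so these values are a description. For the 4 genes with the widest range, the 3 genes of the whole array with the most similar pattern over the 10 arrays were picked by Pearson's r. They were Dock2 (0.992), Mbnl1 (0.988) and Arhgap15 (0.981) for Tnfaip3, Rhoj (0.965), Egr1 (0.961) and Fos (0.957) for Nfkbia, Map3k8 (0.986), Rab8b (0.984) and Ahnak (0.976) for Nfkbiz, and Lacc1 (0.976), AF357399 (0.952) and Snora15 (0.939) for Icam1. These are the highest of 18825 values each and are given as a description.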

How the data were processed

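RNA of salivary gland cells was hybridised to Affymetrix arrays. Each deposited value is the log2 intensity of a probe set, and the submitters' processing notes name RMA and Affymetrix Power Tools as the authors' tools. The sources used here give no versions or settings. Of 41345 probe sets, 23521 had 1 gene symbol in the array's gene table, 1814 had several and 16010 were unnamed here; the last 2 kinds were left out. Probe sets above the array's 25th percentile in at least 3 arrays were kept, the brightest by mean per gene (18826 genes). Groups came from the labels. All 10 arrays entered 1 limma fit (limma 3.58.1, R 4.3.3; lmFit and eBayes, a mean per group), two-sided, with Benjamini-Hochberg adjustment over all genes and a threshold of 0.05. The number of arrays limits the precision. Simulated data with known differences were used to check the fit. Values given with ± are differences with the standard error of the fit, or group means with the SD where stated.

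The genes described and the lists were chosen with earlier results of these data known. All 9 measured genes are named. Of each further pathway list the counts, the genes past the threshold and those with the smallest p are named. Other genes were named after their values were seen. These were Ltbr, Ltb, Sele, Itga4 and Itgal (for their roles) and Sod2, Csf2 and Fadd (lower in diabetic glands). They also include the endothelial markers Vwf and Emcn, the acinar markers Aqp5, Bhlha15 and Pip, and the duct markers Krt8 and Krt18. Alternatives were other filters, probe set averaging, a fit of 2 groups, other variance models, array weights, quantile normalization, median centring, the replicate number as a block, each array left out in turn, and both arrays that stood apart left out.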

Additional observations from a re-analysis of the deposited data

How the results depend on the processing

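At 21 weeks, 0 of 9 genes passed between diabetic and nondiabetic glands. With a filter at the array median 1 passed, with a trended and robust variance 2, and with median centring 2. More genes of the whole array passed as well. They were 364 of 13601 with that filter and 364 of 18826 with that variance, against 271 of 18826 in the main fit. The count among the 9 genes was 0 without each array in turn (lowest 0, highest 0). Between diabetic glands and nondiabetic 6-week glands, where 0 of 9 passed, 1 passed with the filter at the array median, 2 with a trended and robust variance, 3 with array weights, 2 with median centring, 2 without both arrays that stood apart (nondiabetic 21-week array 3 and diabetic array 4), and 0 to 1 without each array in turn. Over all genes, 272 of 18826 passed in the main fit of this comparison. With the median filter 322 of 13601 did, with the trended and robust variance 369 of 18826, and with array weights 672 of 18826. Counts over all genes under the other alternatives are not given here. With the replicate number as a block, 0 of the 9 genes passed at 21 weeks and 1 against 6-week glands (Tnfaip3, 1.11, adjusted p = 0.0266). That replicate block holds diabetic array 4 alone in a block, so that array does not bear on the value. Same-numbered arrays deviated from their group means with correlations of -0.118 to 0.0660, so no shared deviation by number was seen. With so few arrays a group, these values cannot show whether same-numbered arrays had a shared origin. Between the nondiabetic ages 0 of 9 passed under every alternative run. The cause of these changes was not tested.

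The differences that changed sign were all between the nondiabetic ages and none passed. With array weights they were 0.0669 for Relb, -0.0178 for Nfkbia and 0.0886 for Tnf, with quantile normalization 0.0257 for Relb, with median centring 0.00757 for Relb and 0.00837 for Tnf, and without both arrays that stood apart 0.12 for Relb, -0.0314 for Nfkbia and 0.18 for Tnf. Over the fits without each array in turn the differences ran between -0.14 and 0.12 for Relb, -0.17 and 0.11 for Nfkbia, -0.0525 and 0.15 for Nfkbiz, -0.22 and 0.18 for Tnf, and -0.00127 and 0.15 for Birc3. Lcn2 passed under all 20 alternatives in both diabetic comparisons. With 3 or 4 arrays a group, an unadjusted p above 0.000711 did not pass at 21 weeks, so differences of the size seen in Nfkbia and Vcam1 lie near what these arrays can call.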
